A study of Mus musculus with 10 samples.

Results

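The 9 genes described here encode growth factors, or a binding protein of one, through which macrophages can act on epithelium and tumour cells: Igf1, Igfbp4, Hbegf, Areg, Ereg, Hgf, Osm, Egf and Fgf2. They were taken by symbol from the 24538 genes counted in each of 10 RNA-seq libraries, and all 9 were present. All mice were wild type C57BL6/J animals aged 8-10 weeks. The 5 MAM libraries (metastasis-associated macrophages) came from F4/80+ macrophages that were CD11B+ and CD11C-, sorted from dissected lung metastases. These were seeded by tail vein injection of E0771-LG, a breast cancer line of the same mouse strain, into females aged 6-8 weeks, and nodules of 2-4 mice were pooled. The 5 RAM libraries (resident alveolar macrophages) came from the CD11B- and CD11C+ cells of normal lung. Both sorts also required CD45+, LY6C-, MRC1+ and high forward scatter, and alpha-amanitin and actinomycin D, which block transcription, were in the digestion buffer. Tissue and macrophage subset therefore differ together and cannot be told apart. The labels number the replicates without stating that each came from separate mice, so p-values measure the spread between these libraries. Because E0771-LG is a mouse line, its transcripts align to the same genome as those of the host.

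Counts on genes ran from 55391447 to 87523247 in MAMs and from 50746305 to 72150650 in RAMs. Levels are given as CPM, read counts scaled to one common TMM-normalised library size, or as the FPKM the authors deposited, which also divide by transcript length. The labels were set beside marker lists, which include Itgam (CD11B) and Itgax (CD11C), genes of the sorting markers. All 10 genes of a monocyte-derived and interstitial macrophage list were higher in MAMs, with sums of 12580 to 14450 CPM, against 159 to 173 in RAMs. Of 10 alveolar macrophage genes 9 were lower in MAMs, and their sum was 401 to 791 CPM there and 10920 to 13620 in RAMs. Itgam, with a mean of 6270 CPM in MAMs, and Itgax, with 991 in RAMs, were selected by the sort and are no independent check.

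The 9 products belong to 5 signalling systems. IGF1 signals through the receptor tyrosine kinase IGF1R. IGFBP4 binds IGF1 and keeps it from the receptor until PAPP-A, a pappalysin protease encoded by Pappa, cleaves the binding protein. HB-EGF, amphiregulin, epiregulin and EGF are made as membrane-bound precursors, are shed by ADAM proteases and bind EGFR or its relatives. HGF activates MET, OSM acts through gp130 with OSMR or LIFR, and FGF2 acts through FGF receptors. In wound repair, macrophages are known as a source of IGF1, HB-EGF and OSM for neighbouring epithelium.

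To show what sequence precedes members called between MAMs and RAMs and one that did not pass the test, upstream windows are printed. These are the 250 bases upstream of an annotated start of Areg, Igfbp4 and Hgf (RefSeq, GRCm38.p6, plus strand, 5′ to 3′). The windows hold no annotated exon of the gene itself, and exons of other genes were not looked for. They lie at chr5:91139349-91139598, chr11:99040994-99041243 and chr5:16553245-16553494. Capitals mark matches on either strand to any of 8 motifs: the TATA box core TATAAA, AP-1 (TGANTCA), CRE (TGACGTCA), NF-kappa B (GGG and TTTCC with 2 bases between), the interferon response element (GAAA and GAAA with 2 bases between), PU.1 (GAGGAAGT), C/EBP (TTGCNNNAA) and the GC box GGGGCGGGG.
Areg: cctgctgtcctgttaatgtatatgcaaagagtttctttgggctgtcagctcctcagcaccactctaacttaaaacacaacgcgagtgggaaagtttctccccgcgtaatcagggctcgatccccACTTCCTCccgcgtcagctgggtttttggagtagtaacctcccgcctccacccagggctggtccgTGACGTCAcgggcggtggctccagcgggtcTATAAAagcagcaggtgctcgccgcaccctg
Igfbp4: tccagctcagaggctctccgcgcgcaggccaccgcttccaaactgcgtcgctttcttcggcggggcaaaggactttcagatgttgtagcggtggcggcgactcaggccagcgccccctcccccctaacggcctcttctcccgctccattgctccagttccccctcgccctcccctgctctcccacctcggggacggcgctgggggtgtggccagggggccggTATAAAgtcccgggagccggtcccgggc
Hgf: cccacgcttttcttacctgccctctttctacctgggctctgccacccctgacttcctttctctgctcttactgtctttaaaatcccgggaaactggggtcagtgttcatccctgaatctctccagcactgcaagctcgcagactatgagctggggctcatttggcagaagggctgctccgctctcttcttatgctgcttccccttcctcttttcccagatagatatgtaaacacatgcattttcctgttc
The Areg window held 3 matches: TATAAA at -31 to -26, the palindrome TGACGTCA at -61 to -54, and PU.1, on the other strand as ACTTCCTC, at -126 to -119, counted back from the first transcribed base. The Igfbp4 window held TATAAA at -28 to -23, and 69.2% of its bases were G or C against 57.2% for Areg and 50.8% for Hgf. None of the 8 motifs was in the Hgf window, which says only that these letters are not in these 250 bases. Among 32817 windows of this length, 12.4% held TATAAA, 1.55% TGACGTCA and 2.44% the PU.1 letters, while shares for AP-1, NF-kappa B, the interferon element, C/EBP and the GC box were 6.75%, 1.41%, 2.97%, 8.29% and 10.4%. The windows of Igf1 and Fgf2, which overlap annotated exons and are not printed, held 1 AP-1 match and 1 GC box. A window of a second Hgf start, which overlaps exons of the gene, and 2 Egf windows held no match and are not printed. These matches are letters found, not sites shown to be bound.

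The first question was which of the 9 transcripts differed between macrophages of metastases and of normal lung. Igf1, Igfbp4, Hbegf and Areg were higher in MAMs, Osm was higher by less than 2-fold, Hgf did not pass the test, and Ereg, Egf and Fgf2 were too low to be tested. The 11571 genes tested reached a mean FPKM of 1 in MAMs or in RAMs. A gene was called where its fold change exceeded 2 and its adjusted p (edgeR quasi-likelihood test, Benjamini-Hochberg) was below 0.05. Of the 6 members tested, 4 were called higher in MAMs and 0 lower, where 30.3% of all genes tested were called, 15.3% higher and 15.1% lower. By the adjusted p alone, 5 of the 6 were higher, against 28.9% of all genes higher and 56.2% in either direction. Igfbp4 and Hbegf passed the limit on FPKM through MAMs alone, so a difference in these genes was built into that filter. Groups did not overlap in 5 of the 6, against 44.9% of all genes tested. With no filter, 4 of the 9 were called, against 25.9% of 18035 genes. In bulk libraries, fewer cells that carry a transcript and less of it per cell cannot be told apart. The plot of CPM by library shows all 9 genes.

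**Figure D1:**
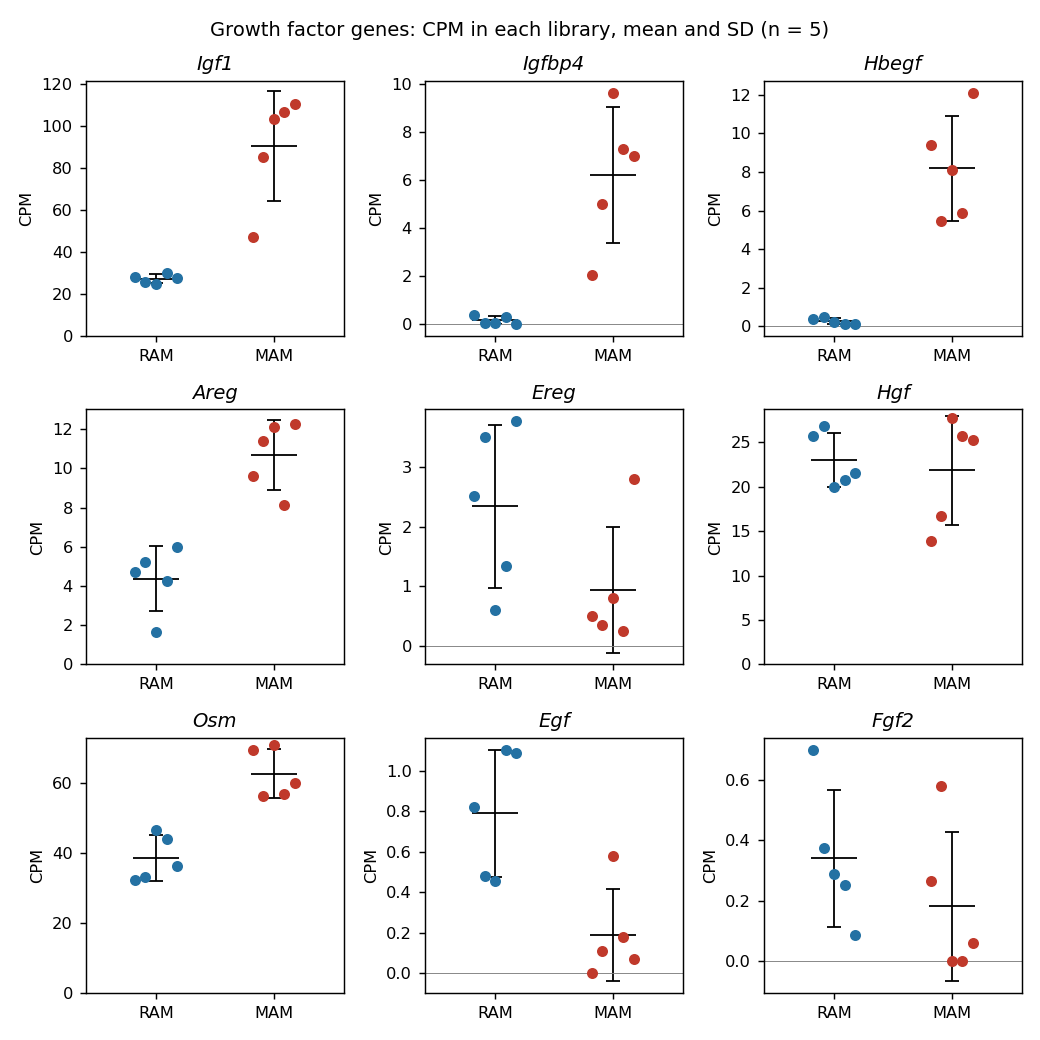
CPM (vertical axes, linear) of each of the 9 genes in 5 RAM libraries (blue) and 5 MAM libraries (red), with lines for the mean and SD; replicates 1 to 5 run from left to right in each group. Groups do not overlap for Igf1, Igfbp4, Hbegf, Areg and Osm, and MAM replicate 5 stands apart for Ereg at 2.80 CPM.

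Igf1, the growth factor itself, had 47.0, 85.3, 103, 107 and 110.5 CPM in MAM replicates 1 to 5, and 27.9, 25.8, 24.7, 30.2 and 27.8 CPM in RAM replicates 1 to 5. Even the lowest MAM library, replicate 1, was above all RAM libraries, and MAMs were the more variable group. The mean was 90.6 ± 26.2 CPM in MAMs and 27.3 ± 2.13 in RAMs (SD, n = 5 each), a 3.32-fold difference. On the log2 scale the difference was 1.73 (SE 0.189, adjusted p = 1.42e-06, edgeR quasi-likelihood test, Benjamini-Hochberg). By the exact permutation test of mean log2 CPM, two-sided, p was 0.00794, the smallest value that splits of 10 libraries into 5 and 5 allow, and it was the same for each member whose groups did not overlap. The gene lies at chr10:87858265-87937042 on the plus strand, and the antisense gene Igf1os overlaps it without sharing exonic bases.

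Igfbp4, whose product holds IGF1 away from its receptor, was low in RAMs. The MAM replicates had 2.05, 5.02, 9.64, 7.31 and 7.01 CPM, from 101 to 488 counts, and RAM replicates 0.394, 0.0601, 0.0621, 0.292 and 0.0213 CPM, from 1 to 23 counts. The groups did not overlap, and MAM replicate 1 was again the lowest of its group. The log2 fold change was 5.20 (SE 0.743, adjusted p = 2.42e-05, edgeR quasi-likelihood test, Benjamini-Hochberg), or 36.8-fold, and 5.82 without RAM replicate 1. The mean RAM level was 2.67% of the mean MAM level. At such levels a floor common to the libraries matters, since among 116 genes over 1000 CPM in MAMs the lowest RAM level was 0.912% of the MAM level. With 1% of the other group's mean taken from each library, the Igfbp4 difference was 5.78. Igfbp4 lies at chr11:99041244-99054392, plus strand, next to the window printed above.

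Of the other IGF ligands, receptors and adaptors, 4 of 7 were tested, with 2 called higher and 2 lower in MAMs, against 15.3% and 15.1% of all genes tested. Both that were higher, Igf2r and Igf1r, met the FPKM limit in MAMs alone. Igf2r, a clearance receptor that takes up IGF2 and lysosomal enzymes, had 346 CPM in MAMs against 4.68 in RAMs (log2 fold change 6.21), and Igf1r, the signalling receptor, 25.3 against 7.26 CPM (1.80). Insr, the insulin receptor, was lower at a log2 fold change of -1.84 (87.2 against 313 CPM), and so was Irs2, an adaptor of both signalling receptors, at -1.26. Groups did not overlap for any of these 4 genes. The remaining ligands were near absent, with Igf2 at no more than 3 counts in any library and Ins2 at 0 in all. Of 12 other binding proteins, pappalysins, their regulators and HtrA1, only Igfbp6 was tested, by its MAM level alone, and called higher in MAMs, at 1.56 against 0.181 CPM (log2 fold change 3.12, and 4.15 without RAM replicate 5). Pappa and Pappa2, the pappalysins, were below the FPKM limit and are given here as a choice made after their values were seen. Pappa2 is a relative of Pappa and is not taken here as a protease of IGFBP4. Pappa2 had 96 to 508 counts in MAM libraries and 0 to 4 in RAM libraries, whereas Pappa had 0 to 48 and 0 to 154.

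Among the EGF family ligands tested, Hbegf had the largest fold change towards MAMs. HB-EGF is a ligand of EGFR and ERBB4 and is known to be made by activated macrophages. MAM replicates 1 to 5 had 9.41, 5.47, 8.10, 5.90 and 12.1 CPM and the RAM replicates had 0.377, 0.496, 0.249, 0.146 and 0.107 CPM. Every MAM library was above 5 CPM and every RAM library below 0.5, with 292 to 843 counts against 5 to 33. This was a log2 fold change of 4.87 (SE 0.501, adjusted p = 7.52e-07, edgeR quasi-likelihood test, Benjamini-Hochberg), or 29.2-fold, and it lay between 4.67 and 5.19 with any 1 library left out. With limma on log2(FPKM + 1) it was 1.96, and 2.02 for Igfbp4, on a scale that shrinks low values. RAMs had 3.35% of the MAM level, and with 1% of the other group's mean removed the difference was 5.37.

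Areg encodes amphiregulin, an EGFR ligand with a part in epithelial repair, and was called with a smaller fold change. MAM libraries had 9.60, 11.4, 12.1, 8.14 and 12.2 CPM, and RAM libraries 4.73, 5.24, 1.66, 4.28 and 6.01 CPM, in the order of replicates. RAMs thus also carried the transcript, at 41.0% of the MAM level, and the lowest MAM library stood above the highest RAM library. Areg had a log2 fold change of 1.29 (SE 0.321, adjusted p = 0.00312, edgeR quasi-likelihood test, Benjamini-Hochberg), with a 95% interval of 0.657 to 1.92. Without RAM replicate 3, the lowest, it was 1.07.

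Ereg, the gene of epiregulin, another EGFR ligand, was below the FPKM limit. It had 0.508, 0.356, 0.805, 0.253 and 2.80 CPM in MAM replicates and 2.52, 3.50, 0.601, 1.33 and 3.77 CPM in RAM replicates, from 14 to 233 counts over all 10. MAM replicate 5 had more than all other MAM libraries and lay within the RAM range, so the groups overlapped. In the fit without a filter the log2 fold change was -1.29 (SE 0.771, adjusted p = 0.188, edgeR quasi-likelihood test, Benjamini-Hochberg), and the exact permutation test, two-sided, gave p = 0.0794. Without MAM replicate 5 it was -2.27 (adjusted p = 0.0279 in the same edgeR fit), which passes 0.05. Ereg shares 141 exonic bases with the antisense gene Gm19610, and no strand setting is stated for the counting.

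Areg and Ereg are neighbours on chromosome 5, with 45953 bases between the end of Ereg (chr5:91074622-91093646) and the start of Areg (chr5:91139599-91148432), both on the plus strand. The balance between them was examined after their values had been seen. Areg had 18.9, 31.9, 15.0, 32.1 and 4.37 counts for each Ereg count in MAM replicates 1 to 5, and 1.88, 1.5, 2.76, 3.20 and 1.59 in RAM replicates. The lowest MAM ratio, in replicate 5, was above the highest RAM ratio. The mean log2 ratio was 4.06 ± 1.18 in MAMs and 1.06 ± 0.487 in RAMs (SD, n = 5 each), a difference of 2.99 (exact permutation test, two-sided, p = 0.00794). Without MAM replicate 5 the difference was 3.48, at p = 0.0159, the smallest that the exact test allows for 4 against 5 libraries. Within each group the libraries kept a partly shared order. Replicate 5 had the highest level of both genes in MAMs and in RAMs, replicate 4 the lowest of both in MAMs and replicate 3 the lowest of both in RAMs.

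**Figure D2:**
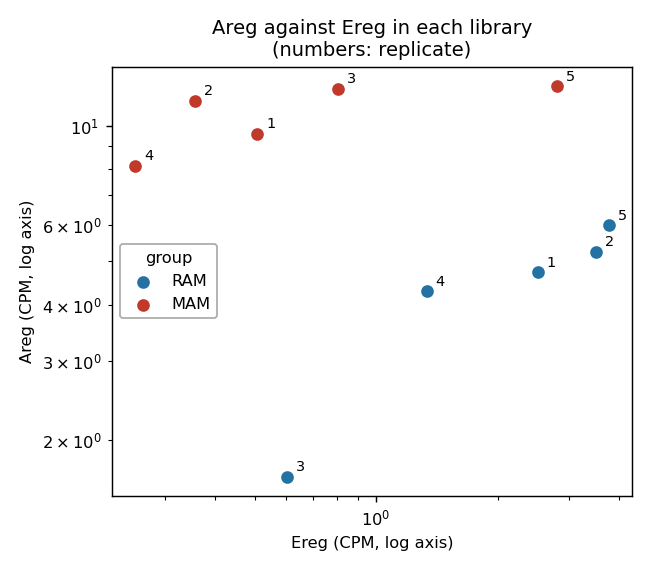
Areg CPM (vertical, log axis) against Ereg CPM (horizontal, log axis), 1 point for each of 5 RAM (blue) and 5 MAM (red) libraries, labelled by replicate. At a given Ereg level the MAM points lie above the RAM points, and MAM replicate 5 lies at 2.80 CPM of Ereg, inside the RAM range of 0.601 to 3.77.

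The other ligands of this family were mostly sparse. Of the 7 examined, only Nrg4, a neuregulin that binds ERBB4, was tested, and it was lower in MAMs at 6.06 ± 1.85 CPM against 52.7 ± 10.4 in RAMs (SD, n = 5 each; log2 fold change -3.12, SE 0.221, adjusted p = 1.02e-08, edgeR quasi-likelihood test, Benjamini-Hochberg). Nrg1, a ligand of ERBB3 and ERBB4, had 76 to 158 counts in MAM libraries and 0 to 13 in RAM libraries. In the fit without a filter its log2 fold change was 5.06 and that of Btc 5.30, both larger than for Hbegf. The Btc value rests on few counts, with 47 in MAM replicate 2, 3 to 8 in the other MAM libraries and 0 or 1 in RAM libraries. Apart from Nrg4 and Nrg1, these ligands stayed below 1.13 CPM in all libraries. Tgfa had at most 7 counts, Btc at most 47 and both were highest in MAMs, Epgn had at most 33 and Nrg2 at most 54, both highest in RAMs, and Nrg3 was at 0 in all 10, which allows up to 3 counts in each.

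Receptors for these ligands were present at low levels. Egfr, which binds HB-EGF, amphiregulin, epiregulin and EGF, was higher in MAMs at 4.66, 16.2, 4.63, 1.61 and 3.09 CPM by replicate, against a highest RAM library of 0.225 CPM. The high library, replicate 2, held 864 of the counts and the other MAM libraries 89 to 229. The log2 fold change was 6.47 (SE 0.955, adjusted p = 3.33e-05, edgeR quasi-likelihood test, Benjamini-Hochberg), 5.69 without MAM replicate 2 and 8.06 without RAM replicate 2. Egfr met the FPKM limit in MAMs alone and Erbb2 in RAMs alone, so a difference was built into their selection. Erbb2, a co-receptor with no ligand of its own, was lower at 0.929 against 4.95 CPM (log2 fold change -2.42). Erbb3 was not tested and had 64 to 146 counts in MAM libraries and 12 to 48 in RAM libraries. Erbb4, a receptor of HB-EGF and NRG4, had no more than 4 counts in any library.

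Of 11 genes that shed EGF family ligands or regulate shedding, 10 were tested, 5 were called higher and 0 lower in MAMs, against 15.3% and 15.1% of all genes tested. Of the 7 that met the FPKM limit in both groups, 4 were called higher, and over the 10 the median log2 fold change was 1.26 against -0.02 over all genes tested. Adam8 had 1965 ± 176 CPM in MAMs and 21.3 ± 1.29 in RAMs (SD, n = 5 each; log2 fold change 6.53). Its RAM level is near the 1% floor described above, and the difference was 10.1 with 1% of the other group removed. Adam19 was higher by 4.31 and Adam15 by 2.38 on the log2 scale. The main sheddases of amphiregulin and HB-EGF, named here for that role after their values were seen, had smaller fold changes. Adam17 had 324 against 234 CPM (log2 fold change 0.47) and Adam10 had 329 against 179 (0.88), and both passed the adjusted p without reaching 2-fold.

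Inhibitors of ERBB and ERK signalling, only some of which are known to be transcribed in response to that signalling, differed in both directions. Of 12, 10 were tested, 6 were called higher and 1 lower in MAMs, of which 4 higher and 0 lower met the FPKM limit in both groups (15.3% and 15.1% over all genes tested), with a median log2 fold change of 1.10. Spry2 was higher by 6.07 (12.2 against 0.179 CPM) and by 6.66 without RAM replicate 1, and Spred1 by 3.84 (313 against 21.9 CPM). Spry1, a close relative of Spry2, was lower at 0.981 against 9.14 CPM (log2 fold change -3.21), and at -4.15 without MAM replicate 2. Cbl, a ubiquitin ligase that removes EGFR from the surface and the most abundant of this list per length, had 369 against 296 CPM (log2 fold change 0.32), which passed the adjusted p but not under upper-quartile scaling.

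Hgf, a growth factor for epithelium made chiefly by mesenchymal cells, did not pass the test, and its groups overlapped. MAM replicates 1 to 5 had 13.9, 16.7, 27.7, 25.7 and 25.2 CPM and RAM replicates 25.7, 26.8, 20.0, 20.8 and 21.6 CPM. The RAM values lay inside the MAM range, whose lowest libraries were replicates 1 and 2. The log2 fold change was -0.07 (95% interval -0.463 to 0.315, adjusted p = 0.774, edgeR quasi-likelihood test, Benjamini-Hochberg), which bounds the difference at under 1.5-fold either way in this fit. It was 0.052 without MAM replicate 1 and 0.0086 without MAM replicate 2. Hgf lies at chr5:16553495-16620152, plus strand, and shares 484 exonic bases with Gm43489, an unclassified transcript on the same strand.

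Several genes around HGF were called. Of 10 genes for its receptor, its relative MST1 and their activation, 6 were tested, with 3 called higher and 2 lower in MAMs, against 15.3% and 15.1% of all genes tested. Met, the HGF receptor, which like Mst1r met the FPKM limit in MAMs alone, had 49.0 ± 14.7 CPM in MAMs and 0.854 ± 0.417 in RAMs (SD, n = 5 each; log2 fold change 5.84, SE 0.377, adjusted p = 3.63e-09, edgeR quasi-likelihood test, Benjamini-Hochberg). Plau, the urokinase gene, whose protease can activate HGF, was higher by 3.17 (128 against 14.3 CPM). Both Kunitz inhibitors of HGF-activating proteases were lower: Spint1, named after its values were seen, at 8.97 against 70.0 CPM (log2 fold change -2.96), and Spint2 at 0 to 3 counts in MAM libraries against 67 to 196 in RAM libraries. Mst1, Hgfac, St14 and Plg were not tested.

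Osm, a cytokine of the interleukin 6 family made chiefly by blood and immune cells, was higher in MAMs by less than 2-fold. The MAM replicates had 69.7, 56.3, 71.0, 56.8 and 60.1 CPM and the RAM replicates 32.3, 33.2, 46.7, 44.2 and 36.3 CPM. The groups did not overlap, and the SD was 7.07 CPM in MAMs and 6.51 in RAMs. In the fit Osm had a log2 fold change of 0.70 (SE 0.130, adjusted p = 0.00028, edgeR quasi-likelihood test, Benjamini-Hochberg), or 1.63-fold, with a 95% interval of 0.449 to 0.959, so it passed the adjusted p and not the 2-fold limit. Osm lies at chr11:4236420-4241026, plus strand.

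Of 10 receptor genes and relatives of OSM, 7 were tested, 2 called higher and 1 lower in MAMs, against 15.3% and 15.1% of all genes tested. Both that were higher, Lifr and Il6, met the FPKM limit in MAMs alone. Lifr, which pairs with gp130 for LIF and can serve OSM, had 70.1 CPM in MAMs and 1.13 in RAMs (log2 fold change 5.94), while Il6st, the gene of gp130 itself, was lower at 232 against 484 CPM (log2 fold change -1.06). Osmr, the OSM-specific subunit, also named after its values were seen, was below the FPKM limit, with 42 to 269 counts in MAM libraries and 0 to 22 in RAM libraries. Il6, the founding ligand of the family, was higher in MAMs at 21.5 against 0.724 CPM (log2 fold change 4.91, and 5.78 without RAM replicate 3).

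Egf and Fgf2 were the scarcest members by count in MAMs. Egf, the founding EGFR ligand, had 0, 0.112, 0.581, 0.181 and 0.0718 CPM in MAM replicates and 0.822, 0.480, 0.456, 1.11 and 1.09 CPM in RAM replicates, from 0 to 26 and from 22 to 53 counts. MAM replicate 3 alone reached the RAM range. The log2 fold change in the fit without a filter was -2.04 (SE 1.13, adjusted p = 0.155, edgeR quasi-likelihood test, Benjamini-Hochberg), whereas the exact permutation test, two-sided, gave p = 0.0238, and without MAM replicate 3 the fitted value was -3.06 (adjusted p = 0.0575 in edgeR). The permutation p is not adjusted over genes and cannot be read at the threshold for adjusted p. In edgeR the unadjusted p was 0.0879, so Egf did not pass in this fit. It lies at chr3:129677565-129755316, minus strand, and 2 antisense genes share exonic bases with it.

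Fgf2, a growth factor for fibroblasts and endothelium, had 0.264, 0.581, 0, 0 and 0.0575 CPM in MAMs and 0.702, 0.375, 0.290, 0.250 and 0.0853 CPM in RAMs. The groups overlapped, and 2 MAM libraries had no count, which allows up to 3 counts in each. The log2 fold change was -0.89 (95% interval -3.65 to 1.88, adjusted p = 0.635 in edgeR without a filter), and -2.04 without MAM replicate 2, so no difference was detectable at this depth. Fgf2 lies at chr3:37348346-37410108, plus strand, and shares 640 exonic bases with Nudt6 on the other strand. Of 14 other FGF genes only 3 were tested, each meeting the FPKM limit in 1 group alone. Fgf1, which binds all FGF receptors, was lower in MAMs at 0.162 against 24.5 CPM (log2 fold change -7.24). The receptor Fgfr1 was higher at 78.0 against 0.709 CPM (6.79). The lower level of each was under 1% of the higher. In the direction of Fgf1, among 81 genes over 1000 CPM in RAMs, the lowest MAM level was 1.07% of the RAM level. With 1% of the other group removed, the differences were -10.8 for Fgf1 and 10.4 for Fgfr1. Fgfbp3, a carrier of FGFs, was lower at 0.724 against 3.51 CPM (-2.27).

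**Figure D3:**
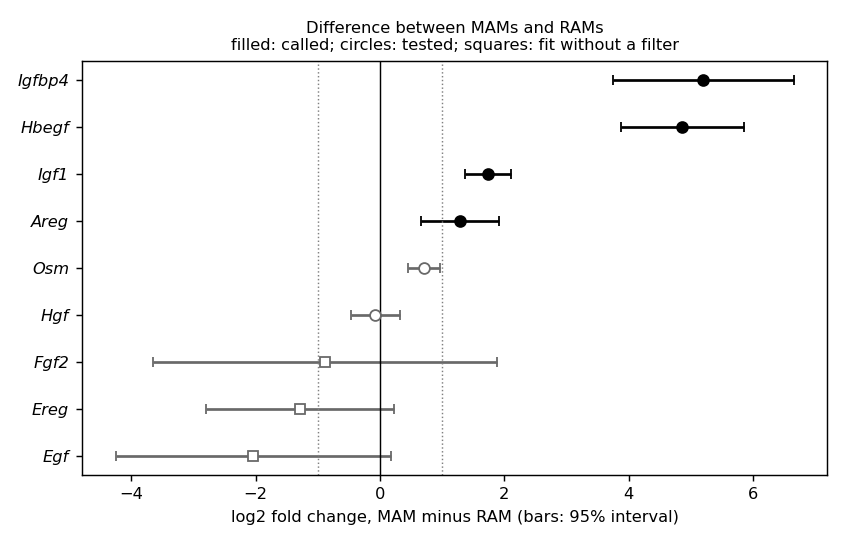
Log2 fold change of MAMs against RAMs (horizontal) for the 9 genes, with 95% intervals; filled circles were called, open circles were tested and not called, squares come from the fit without a filter, and dotted lines mark 2-fold. Igfbp4 at 5.20 and Hbegf at 4.87 lie farthest to the right, Hgf at -0.07 lies on the line of no difference, and the bars of Fgf2, Ereg and Egf cross it.

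Over all 9 lists of receptors, related ligands, sheddases, feedback genes and activators, 44 of 87 genes were tested, 21 were called higher and 10 lower in MAMs, against 15.3% and 15.1% of all genes tested. Their median log2 fold change was 0.99. As for Igfbp4 and Hbegf, the FPKM limit was met in 1 group alone by 21 of the 44, which made 17 of the 31 calls and had to differ to be tested, so the counts of these lists are descriptions. Of the 23 genes that met it in both groups, 9 were called higher and 5 lower.

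**Figure D4:**
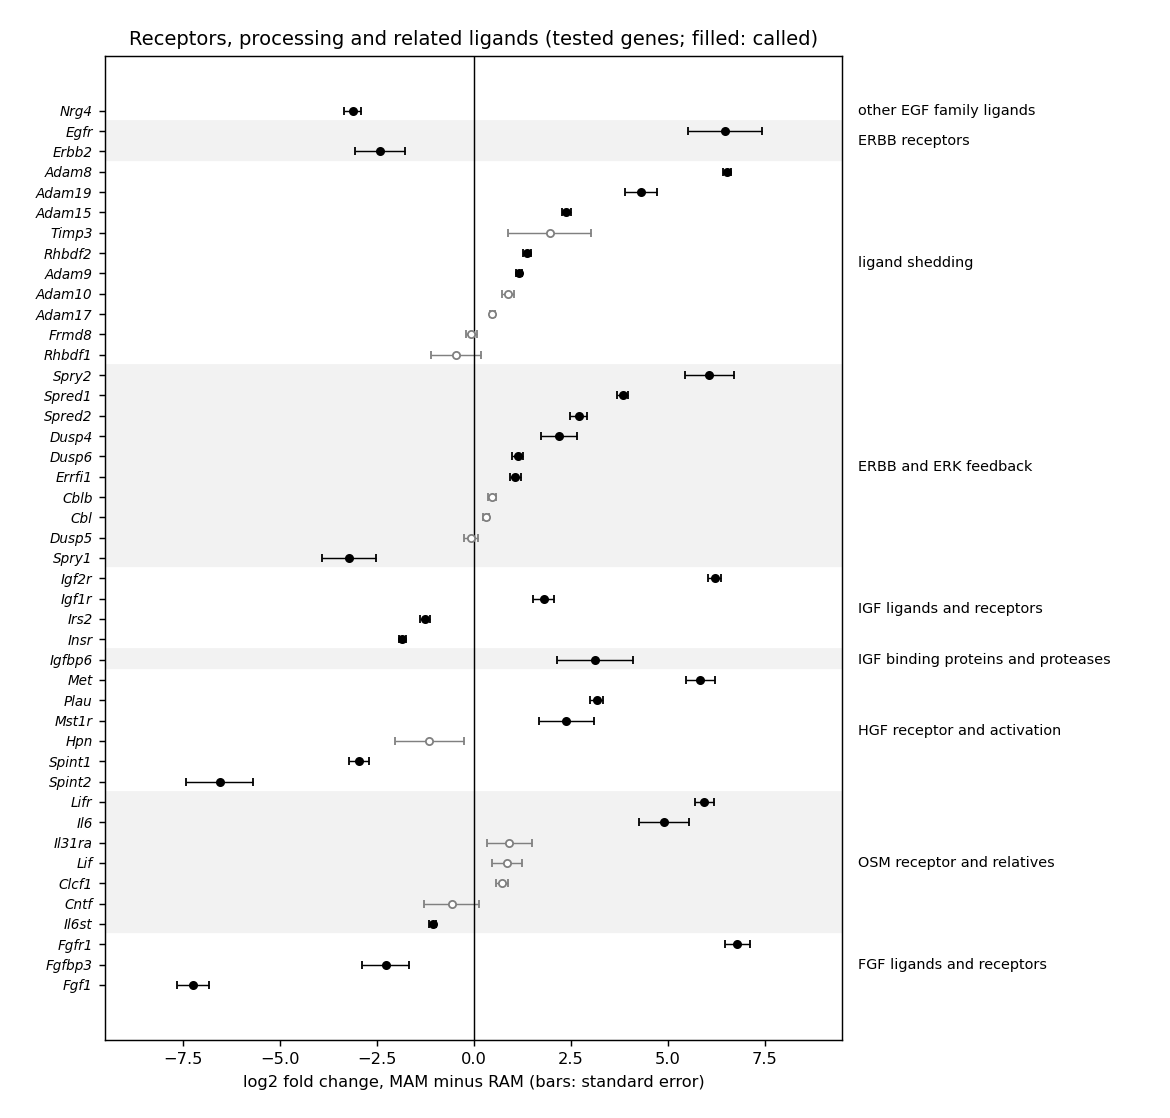
Log2 fold change of MAMs against RAMs (horizontal) with standard errors for the 44 tested genes of the 9 lists, grouped by list as named on the right; filled points were called. Adam8, Fgfr1 and Egfr lie at the right edge at 6.53, 6.79 and 6.47, Fgf1 at the left edge at -7.24, and no gene of the shedding list was called lower.

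Compared per transcript length, Osm was the most abundant of the 9 in both groups, at 37.4 FPKM in MAMs and 22.7 in RAMs, above 82.8% and 74.8% of all genes tested. In MAMs it was followed by Igf1 at 10.8 FPKM, Areg at 6.69, Hgf at 6.02, Igfbp4 at 3.84 and Hbegf at 3.57, whose ranges overlapped from each gene to the next. Hbegf did not overlap Fgf2, nor Osm Igf1, and Fgf2, Ereg and Egf were below 0.34 FPKM. In RAMs the order was Osm, Hgf at 6.07, Igf1 at 3.15 and Areg at 2.84 FPKM, and the other 5 genes were below 0.49 FPKM with overlapping ranges. Osm and Hgf did not overlap there, nor did Hgf and Igf1. Igfbp4 was thus the lowest of the 9 in RAMs, at 0.128 FPKM, and the fifth in MAMs. By CPM per exonic kilobase, the order in RAMs became Osm, Areg, Hgf and Igf1, and in MAMs Hbegf exchanged places with Igfbp4 and Ereg with Fgf2.

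**Figure D5:**
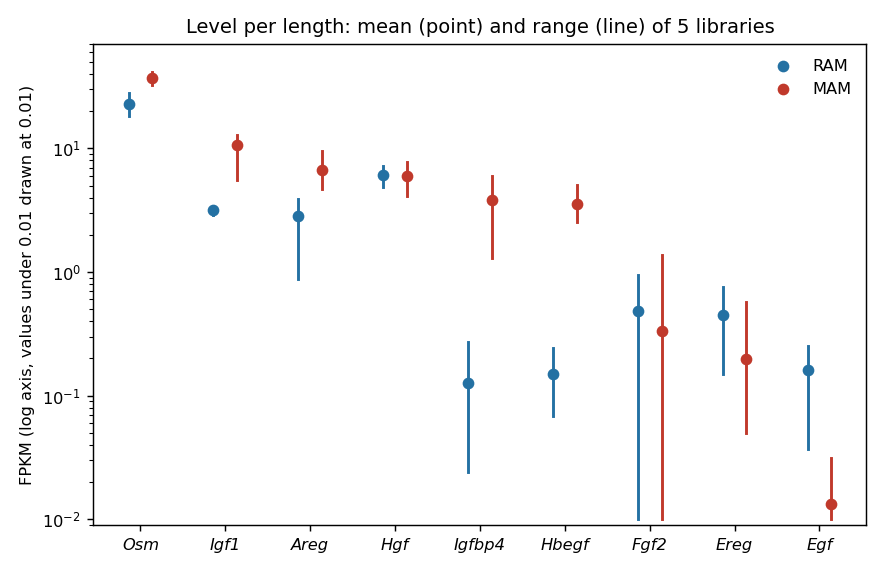
FPKM (vertical, log axis, values under 0.01 drawn at 0.01) of the 9 genes as mean (points) and range (lines) of 5 RAM (blue) and 5 MAM (red) libraries, ordered by the mean in MAMs. Osm is highest in both at 22.7 and 37.4 FPKM, Hgf is at 6.07 and 6.02, and Igfbp4 and Hbegf are far apart between groups.

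The pattern of each tested member over the 10 libraries was compared with that of all genes tested by Pearson's r of log2 CPM, as a description, since libraries of the 2 groups form separate clusters and the group difference sets most of r. The most similar gene was Tmem8 for Igf1 (r = 0.988), Mgrn1 for Igfbp4 (0.990), Vps37b for Hbegf (0.992), Dpy19l3 for Areg (0.959), Gm15987 for Osm (0.969) and 2410002F23Rik for Hgf (0.912). More than 0.9 was reached by 1658 genes for Hbegf, 1208 for Igfbp4 and 1013 for Igf1, but by 377 for Osm, 91 for Areg and 2 for Hgf. Hbegf was thus 1 of many genes with this pattern.

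Among MAM libraries, Igf1, Igfbp4 and Hgf shared their low end: replicate 1 was lowest and replicate 2 next for all 3 genes. The sum of the alveolar macrophage list was highest in these same 2 MAM libraries, at 791 and 644 CPM against 401 to 531 in the others. Its widest ranges in MAMs were those of Marco (89.8 to 389 CPM), the sorting marker Itgax (144.5 to 240) and Chil3 (89.1 to 118), while Siglecf had 3.09 to 4.82. The monocyte-derived and interstitial list was also highest in replicates 1 and 2, at 14450 and 13950 CPM against 12580 to 13130. The fibroblast list, of cells known to make IGF1, IGFBP4 and HGF, summed to 40.9, 3.52, 35.7, 4.92 and 14.1 CPM in MAM replicates 1 to 5 and to 0.311 to 6.61 in RAMs, with Col3a1 the highest in MAMs at 0.469 to 18.01 CPM, Dcn in RAMs, and Lum at 3 counts or fewer in all. Of its 8 genes 2, Col1a1 and Pdgfra, were tested and called higher, against 15.3% of all genes tested. They met the FPKM limit in MAMs alone, so a difference was built into their selection, and the groups overlapped for Col1a1. Other lists were lowest in replicates 1 and 2, with endothelial sums of 28.1 and 59.2 CPM against 77.5 to 114 in the other MAM libraries, platelet sums of 350 and 522 against 787 to 1047, and neutrophil sums of 124 and 149 against 217 to 312. The part of any of these cell types in the spread among MAMs was not tested.

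Markers of other cells that can make EGF family ligands or OSM were also summed. Beside the counts of calls given here, 15.3% of all genes tested were called higher and 15.1% lower. Some of these marker genes met the FPKM limit in 1 group alone, so the counts are descriptions. Epithelial and tumour markers were lower in sum in MAMs, at 10.7 to 24.0 CPM against 590 to 702 in RAMs (4 of 8 tested, 3 lower). The 3 lower were Epcam, Cdh1 and Krt19, at 76.8, 131 and 436 CPM in RAMs. They made most of the sum, and Krt19 was the highest in both groups. The lung epithelial gene Sftpc had 14.4 CPM in RAMs. Whether these 3 transcripts came from the macrophages themselves was not tested. The sum therefore cannot rank the groups by epithelial or tumour cells. The other keratins had higher means in MAMs, given here after their values were seen: Krt8 had 0.615 to 3.31 CPM against 0 to 0.206 in RAMs without overlap (log2 fold change 4.95 in the fit without a filter), while Krt18 (0 to 8.84 against 0 to 0.438 CPM) and Krt7 (0.0718 to 0.806 against 0 to 0.533 CPM) overlapped. Lung epithelial markers had sums of 24.7 to 43.6 CPM (MAMs) and 33.4 to 56.4 CPM (RAMs), with Hopx highest in MAMs and Sftpc in RAMs. Of these, 6 of 10 were tested, 1 called higher and 4 lower. Neutrophil markers overlapped at 124 to 312 and 140 to 202 CPM (5 of 7 tested, 3 higher, 1 lower), Csf3r being highest in both. Lymphocyte markers overlapped at 14.3 to 30.8 and 5.24 to 21.0 CPM (5 of 12 tested, 1 higher). Mast cell, basophil and innate lymphoid markers were higher in sum in MAMs, at 266 to 295 against 70.9 to 101 CPM (2 of 9 tested, 1 higher, 1 lower). Il7r alone made 246 to 279 CPM of the sum in MAMs. Fcer1a had 3 counts or fewer in every library. The highest MAM library had 79 counts of Mcpt8, 33 of Ms4a2, 133 of Cpa3, 63 of Gata3 and 140 of Il1rl1. The highest RAM library had 0, 0, 27, 17 and 20. Kit went the other way, with at most 9 counts in MAMs and 56 in RAMs. Platelet markers had sums of 350 to 1047 CPM (MAMs) and 13.4 to 17.99 CPM (RAMs), of which Pf4 made 274 to 789 CPM in MAMs (3 of 5 tested, 2 higher). The platelet receptor genes Itga2b, Gp9 and Gp1ba were at 0.0144 to 4.74 CPM there and not higher than in RAMs on average. Endothelial markers were at 28.1 to 114 against 127 to 214 CPM (4 of 7 tested, 3 higher, 1 lower), with Kdr highest in MAMs and Vwf in RAMs. Dendritic cell markers were at 3.58 to 14.2 against 19.3 to 29.3 CPM (2 of 7 tested, 1 higher, 1 lower), with Zbtb46 and Clec9a highest. The part of these cells in the differences was not tested.

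Areg, Ereg, Hbegf and Osm can be induced quickly, so genes induced by tissue dissociation were read beside them. The 16 immediate early and stress genes had sums of 3433 to 3935 CPM (MAMs) and 3321 to 3733 CPM (RAMs), and the ranges overlapped. Of these genes 4 were called higher and 2 lower in MAMs, against 15.3% and 15.1% of all genes tested. By the adjusted p alone, 8 were higher and 6 lower. The 2 called lower were Fosb, at 104 against 510 CPM (log2 fold change -2.29), and Egr2, at 144 against 304.5 CPM (-1.08). Ier3, Hspa1a and Hspa1b had the largest differences at log2 fold changes of 3.70, 3.43 and 3.21, and the most abundant per length, Zfp36, was at 1113 against 622 CPM. Their part in the levels of the growth factor genes was not tested.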

How the data were processed

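RNA-seq libraries of 5 MAM and 5 RAM samples were used, grouped by title and sorting markers. The authors aligned paired reads to GRCm38 with Tophat 2.0.13, counted them per gene on UCSC RefGene models with htseq-count (HTSeq 0.6.1, strand setting not given in the sources used here) and deposited raw counts per library. FPKM per gene were also deposited by the authors, from Cufflinks 2.2.1. Lines of the count files that name no gene were left out. They held 54.6% to 58.3% of all counts in MAM libraries and 62.2% to 64.1% in RAM libraries. The part of this difference in the results was not tested. From the counts, edgeR 4.0.16 in R 4.3.3 gave TMM factors, CPM and the quasi-likelihood test, with Benjamini-Hochberg adjustment over the 11571 genes tested, and limma 3.58.1 and DESeq2 1.42.0 served as alternatives. Permutation tests were exact. A count of 0 allows up to 3 counts, and intervals cover the spread between libraries or, for this limit, counting error alone, since the reads carry no molecular identifiers and need not be separate molecules. Gene positions came from GENCODE M21 and upstream windows from RefSeq, both on GRCm38, and 6 of the 9 members had a window that was searched. Lists of partner and marker genes came from general knowledge. In each partner list and the immediate early list, up to 3 of the largest called differences without overlap and the most abundant gene were named. All ERBB receptors and EGF family ligands were named too. In marker lists, some of the genes with the highest mean CPM in a group were named. Any other list gene named was chosen after its values were seen. A proliferation list and a general macrophage list were also made and are not described. The members and lists were chosen with earlier results of these data known. The fits were tested on simulated data. Protein sequences were not used here.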

Additional observations from a re-analysis of the deposited data

Results flagged for a closer look

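The Ereg level of MAM replicate 5, 2.80 CPM, stood apart from the other 4 MAM libraries, which had 0.253 to 0.805 CPM, by more than Dixon's 95% critical value for 5 libraries. Its Ereg count was 195, against 14 to 36 in the other MAM libraries. Areg in the same library was the highest of its group by a small margin, at 12.2 against 12.1 CPM in replicate 3. Hbegf was also highest there, at 12.1 CPM. Of 18 groups examined (9 genes in MAMs and in RAMs), this was the only one flagged, and chance flags about 1 in 20.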

How the results depend on the processing

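The number of members called, 4 higher and 0 lower in MAMs, held under all 9 other settings (RLE and upper-quartile scaling, DESeq2, no filter, filterByExpr, the replicate block, limma on log2(FPKM + 1) and on log2(FPKM + 0.1), and 1% of the other group's mean removed) and with each of the 10 libraries left out. Over all genes the number called ranged from 2909 to 4672. Upper-quartile scaling shifted the median of all genes by -0.17 on the log2 scale. Exceptions to the side of the threshold were Ereg, at -2.27 to -1.04 with 1 library left out and past it without MAM replicate 5, and Egf, which passed with limma at -0.19 on log2(FPKM + 1) and -1.13 on log2(FPKM + 0.1), scales that shrink low values. Hgf ran from -0.17 to 0.052 with 1 library left out, positive without MAM replicate 1 or 2, and was never past the threshold. The causes for Ereg and Hgf were not tested. Of 26 named partner genes that were called, 23 kept the call under all settings. Egfr, Erbb2 and Igf1r fell under 2-fold with limma on log2(FPKM + 1), at 0.97, -0.77 and 0.99. Removing 1% of the other group moved genes near that floor by over 1.5 times, to 7.26 for Egfr, 7.14 for Spry2, 8.16 for Igf2r, 6.90 for Met, 7.29 for Lifr and -7.28 for Spint2. With the replicate block, 4 members were again called and 3526 genes in all, but same-numbered libraries did not deviate together (r -0.04 to 0.03 over genes in 5 pairs, with 2 of 5 MAM libraries closest to their own number), so the numbers do not pair the libraries. The Areg to Ereg ratio, tested after seeing the data, differed by 2.76 to 3.48 with 1 library left out. Features of the proteins were planned and not run. Depth limits Egf and Fgf2, with 53 counts or fewer per library.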
